A study of Mus musculus with 113 samples.

Results

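The 38 genes described here are the glycolysis and hypoxia response genes of differentiating mouse embryonic stem (ES) cells. They comprise 28 genes for glucose uptake, the glycolytic enzymes, lactate handling and the entry of pyruvate into mitochondria, and 10 genes of the hypoxia response. Members were taken by gene symbol from 4 deposited gene tables, which together name 23736 genes. The tables of SFEB populations (13541 genes), adherent monoculture (13738 genes) and E14 cells (23107 genes) list all 38 members. The single-cell table (11449 genes) lists 35, without *Pfkfb4*, *Eno2* and *Vegfa*.

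The study followed neural differentiation of mouse ES cells by RNA sequencing in 113 samples. R1 ES cells were grown either as SFEB, a serum-free floating culture in which cells form embryoid body-like aggregates in GKSR medium, or as a monolayer in N2B27 medium on gelatin (adherent monoculture). The SFEB populations fall into a first series of 14 libraries from 0 to 142 h and a parallel series of 8 libraries from 0 to 216 h, the latter at the same hours as the 64 single cells (8 cells at each of 8 times). Adherent monoculture was sampled in 15 libraries from 0 to 216 h. On day 6 (144 h) cells of both cultures were replated onto coated dishes, so the 216 h libraries came from attached cells in either case. The remaining 12 libraries are wild-type (WT) and *Fyn* knockout (KO) E14 ES cells at days 0 and 4, 3 per group, with neither a drug treatment nor another allele named in the labels. The KO cells are 1 clone made with Cas9 and a pair of guides, and the labels do not say whether libraries of a group came from separate cultures.

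Glycolysis turns glucose into pyruvate in the cytosol. Pyruvate is then either reduced to lactate by lactate dehydrogenase and exported, or oxidized in mitochondria through pyruvate dehydrogenase, which the pyruvate dehydrogenase kinases switch off. When oxygen is scarce, prolyl hydroxylases of the EGLN family stop marking HIF1A for destruction, and HIF1 binds short hypoxia response elements and raises transcription of glucose transporters, most glycolytic enzymes, *Vegfa*, *Bnip3* and the EGLN enzymes themselves. Pluripotent cells are known for a high rate of glycolysis, and floating aggregates for a drop in oxygen toward their center.

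Values are FPKM (fragments per kilobase of transcript, scaled to the mapped fragments of the library), which correct for length, and those of the SFEB populations were batch-adjusted by the authors. The tables hold no counts, so the depth of each library was not computed and no counting interval is given. Changes in the populations and E14 cells are differences of mean log2(value + 1) tested with limma across the genes of a table, called at a Benjamini-Hochberg adjusted p below 0.05. The windows were early (0 to 24 h), mid (24 to 72 h) and late (72 to 144 h); each library is a different time point, so p-values measure the spread between times within a window rather than between replicate cultures. The tables were normalized separately, so levels in the 2 cultures stand side by side and are not tested against each other. Many glycolytic genes have processed pseudogenes, and a share of their reads could have been placed on or taken from such copies.

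The labels hold against marker genes. The summed level of 8 pluripotency markers was 2437 FPKM at 0 h and 139 at 142 h in the first SFEB series, and 2463 and 373 at 0 and 140.5 h in adherent monoculture, with 0 of 8 markers rising and 8 falling from the early to the late window in both. Of 8 neural progenitor markers 7 rose in both cultures. The 10 fibroblast markers, genes of the feeder cells on which ES cells are propagated, summed to 823 FPKM at 0 h, 128 at 22 h and 18.7 at 142 h in the first SFEB series, to 849 at 0 h and 365 at 9 h in the parallel series, and to 363, 131 and 65.7 at 0, 20.5 and 140.5 h in adherent monoculture. None of the 10 was at 0 in any of these libraries. In bulk samples, fewer cells of a type and less RNA per cell cannot be told apart, and the part of fibroblast RNA in the results below was not tested. The study's methods state that feeders were removed by a feeder-free passage before differentiation.

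In the first hours of floating culture 4 hypoxia response genes fell. Comparing the libraries of 8 and 22 h with those of 0, 1 and 2 h in the first SFEB series, 4 of the 10 passed the test, all lower (*Bnip3*, *P4ha1*, *Ndrg1* and *Ddit4*), and the median change of the 10 was -1.17 on the log2 scale, against 0.04 over all 13009 genes tested. Over the whole membership 11 of 38 genes fell and 0 rose, where 3.85% of all genes fell and 2.43% rose. With a pseudocount of 0.1 in place of 1, 8 of the 11 were called and *Ddit4*, *Pgk1* and *Pkm2* were not. In adherent monoculture the same contrast (8.5 and 20.5 h against 0 and 2.5 h) called 0 of 38 members and 0.0157% of all genes as falling; limma found 2 of 38 members at an unadjusted p under 0.05, as it did 4.47% of all genes, and the median member change was -0.05. The contrast was added after the values had been seen, and it rests on 2 libraries: without that of 22 h the first SFEB series called 0 members and 42 genes, against 817 with it, and without that of 0, 1 or 2 h it called 5, 4 and 7 members.

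*Bnip3*, a mitochondrial receptor that marks the organelle for autophagy, stood at 33.5, 35.3 and 33.8 FPKM at 0, 1 and 2 h and at 7.9 and 8.92 at 8 and 22 h, a change of -1.90 ± 0.50 (SE, adjusted p = 0.0385) on the log2 scale. The ranges were far apart. In adherent cells, whose values were normalized separately, *Bnip3* was 6.47 and 5.39 at 0 and 2.5 h and 5.8 and 8.39 at 8.5 and 20.5 h. *P4ha1*, a prolyl hydroxylase of collagen, was 27, 26.1 and 24.5 at the start and 11.8 and 5.85 afterwards (-1.52 ± 0.26 (SE, adjusted p = 0.0051)). *Ndrg1*, a stress-responsive gene, went from 9.4, 11.1 and 12.5 to 4.95 and 2.61 (-1.36 ± 0.28 (SE, adjusted p = 0.0119)). *Ddit4*, an inhibitor of mTORC1 signaling, went from 41.8, 47.8 and 57.8 to 25.6 and 17.1 (-1.18 ± 0.31 (SE, adjusted p = 0.0403)). In each of these the 2 later libraries lay below all 3 earlier ones, as they did for 27 of the 38 members and for 18.9% of all genes.

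Of the other hypoxia response genes, several showed drops of like size that did not pass the test. *Vegfa*, the angiogenic growth factor, was 15.7, 18.3 and 22.9 FPKM at 0 to 2 h and 10.9 and 4.16 at 8 and 22 h (-1.33 ± 0.47 (SE, adjusted p = 0.114)). *Egln3*, a HIF prolyl hydroxylase that is itself a HIF target, was 11.8, 12.2 and 8.53 and then 4.77 and 4.13 (-1.10 ± 0.35 (SE, adjusted p = 0.0799)). *Ankrd37*, a small ankyrin-repeat protein, was 7.97, 8.28 and 15.1 and then 4.03 and 3.84 (-1.16 ± 0.40 (SE, adjusted p = 0.102)). *Hif1a* itself, the oxygen-regulated subunit of HIF1, went the other way without passing the test, from 31.3, 31.4 and 26.5 to 35.5 and 37.9 (0.30 ± 0.12 (SE, adjusted p = 0.163)); its protein is regulated mainly by stability, which RNA does not report.

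The promoters of the members were searched for the site that HIF1 binds. HIF1 recognizes the core ACGTG or GCGTG, and both were searched on either strand (so also as CACGT and CACGC) in the RefSeq promoters of build GRCm38.p6, from 250 bases before to 50 bases after the start of each gene. Of the 36 members with an entry, 29 (80.6%) held at least 1 core, against 43.8% of the 27025 gene symbols of the table, and 14 (38.9%) held 3 or more, against 9.11%. These shares count the first promoter listed for each symbol. Counting any listed promoter, 33 members (91.7%) held a core, against 46.7% of symbols. Of the 10 members with an entry that were called as falling, 3 (*Tpi1*, *Aldoa* and *Pkm2*) held 0 cores in the first promoter, and *Tpi1* held none in any. Such a match is a description of the letters, not evidence that the factor binds. The 27025 symbols were counted whether or not their genes are expressed in these cells, and every core holds the letters CG. No share was computed over expressed genes or promoters of like CG content, so the higher share of the members was not tested as a trait of HIF1 sites. *Slc2a3* and *Ndrg1* had no entry. The promoters of 4 members that hold cores are shown: *Bnip3*, *P4ha1* and *Ldha* were called as falling in the populations, and *Ankrd37* was near 0 in all single cells at 9 h.

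The sequences run 5′ to 3′ on the strand of the gene, with every core in capitals; cores that overlap run together, and the palindrome CACGTG counts as 2. *Bnip3* lies on the minus strand at chr7:138909457-138909756 (5 cores), *P4ha1* on the plus strand at chr10:59323046-59323345 (3 cores), *Ankrd37* on the minus strand at chr8:45999801-46000100 (4 cores) and *Ldha* on the plus strand at chr7:46845554-46845853 (7 cores).
Bnip3: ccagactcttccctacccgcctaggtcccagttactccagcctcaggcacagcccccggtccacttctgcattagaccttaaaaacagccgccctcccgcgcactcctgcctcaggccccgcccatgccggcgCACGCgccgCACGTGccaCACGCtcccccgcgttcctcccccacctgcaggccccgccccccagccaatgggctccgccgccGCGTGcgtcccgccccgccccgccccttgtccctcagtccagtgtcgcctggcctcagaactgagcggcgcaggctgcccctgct
P4ha1: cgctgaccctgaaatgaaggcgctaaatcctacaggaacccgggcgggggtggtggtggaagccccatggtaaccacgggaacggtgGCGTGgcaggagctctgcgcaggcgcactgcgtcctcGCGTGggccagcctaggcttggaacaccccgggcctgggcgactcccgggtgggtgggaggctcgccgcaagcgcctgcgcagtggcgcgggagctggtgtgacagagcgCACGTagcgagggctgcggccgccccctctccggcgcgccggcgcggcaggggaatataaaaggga
Ankrd37: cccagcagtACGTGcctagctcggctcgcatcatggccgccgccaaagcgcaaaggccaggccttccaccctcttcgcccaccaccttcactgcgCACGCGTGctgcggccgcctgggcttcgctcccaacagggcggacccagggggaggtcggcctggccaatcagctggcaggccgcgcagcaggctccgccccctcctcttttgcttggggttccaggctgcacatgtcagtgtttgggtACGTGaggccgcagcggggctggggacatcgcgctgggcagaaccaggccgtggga
Ldha: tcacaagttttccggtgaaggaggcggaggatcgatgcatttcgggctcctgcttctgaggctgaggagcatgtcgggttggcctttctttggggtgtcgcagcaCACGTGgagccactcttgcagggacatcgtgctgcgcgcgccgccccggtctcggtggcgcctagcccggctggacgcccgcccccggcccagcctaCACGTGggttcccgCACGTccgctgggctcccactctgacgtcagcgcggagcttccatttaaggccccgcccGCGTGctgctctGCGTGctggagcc

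The parallel SFEB series, whose first hours are covered by 1 library at 0 h and 1 at 9 h and allow no test, gave the same order of levels. *Bnip3* was 61.3 FPKM at 0 h and 8.31 at 9 h, *Egln3* 15.6 and 2.95, *P4ha1* 34.5 and 10.1, *Vegfa* 22.8 and 10.7, and *Ankrd37* 8.88 and 2.54. At 9 h, 37 of the 38 members were lower than at 0 h (51.2% of all genes) and 17 were at least 2-fold lower on the log2(value + 1) scale, where 3.32% of all genes were. In the first series 36 members were lower at 8 h than at 0 h (46.0% of all genes) and 5 at least 2-fold lower (2.45% of all genes). In adherent monoculture 24 were lower at 8.5 h than at 0 h (46.9% of all genes) and 0 at least 2-fold (0.576% of all genes). Fibroblast marker genes dropped over the same hours, with a median change of -1.20 over the 10 markers in the first SFEB series (4 fell) and of -0.89 in adherent monoculture (0 called).

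**Figure D1:**
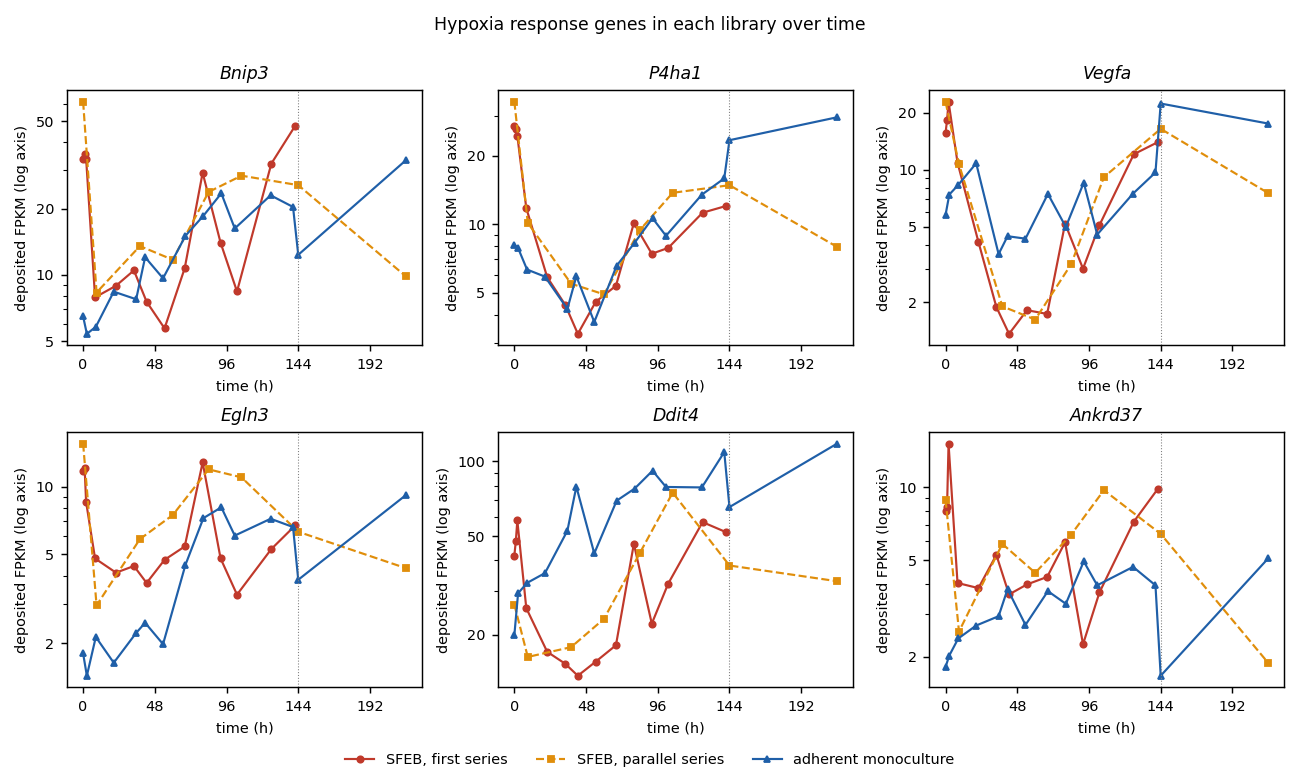
Deposited FPKM (log axis) of 6 hypoxia response genes in each population library against time in hours; lines join the libraries of the first SFEB series (circles), the parallel SFEB series (squares) and adherent monoculture (triangles), and the dotted line marks replating at 144 h. Both SFEB series start high and drop by 8 to 9 h (*Bnip3* from 33.5 to 7.9 and from 61.3 to 8.31), while adherent monoculture starts low.

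Of the 28 glycolysis members, 7 fell and 0 rose from 0 to 2 h to 8 to 22 h in the first SFEB series (3.85% and 2.43% of all genes), with a median change of -0.42 (0.04 over all genes). *Tpi1*, which interconverts the triose phosphates, fell from 176, 195 and 210.0 to 83.5 and 69.1 FPKM (-1.33 ± 0.22 (SE, adjusted p = 0.00505)). *Pgk1*, the first ATP-producing step, fell from 381, 382 and 485 to 267 and 185 (-0.89 ± 0.25 (SE, adjusted p = 0.0472)), and *Aldoa*, the main aldolase, from 979.6, 1056 and 1061 to 691 and 457 (-0.87 ± 0.22 (SE, adjusted p = 0.0326)). All 3 genes were at their early peak at 1 or 2 h, and none of their ranges overlapped. *Pfkl*, the liver-type phosphofructokinase subunit, fell by 0.99 on the log2 scale (adjusted p = 0.0115) and *Pkm2*, the row for pyruvate kinase M, by 0.63 (adjusted p = 0.0403). *Gapdh* was not called, at 758, 849.7 and 639 and then 739 and 739 (-0.01 ± 0.17 (SE, adjusted p = 0.987)).

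*Slc16a3*, the lactate exporter MCT4 and a HIF target, stood at 60.6, 59.3 and 39.3 FPKM and then at 9.7 and 20.9 (-1.80 ± 0.43 (SE, adjusted p = 0.0248)), and *Ldha*, the muscle-type lactate dehydrogenase subunit that favors lactate, at 666, 758 and 757 and then 398 and 225 (-1.28 ± 0.30 (SE, adjusted p = 0.0236)). *Ldhb*, the heart-type subunit, was 200.3, 196 and 245 and then 161 and 203 (-0.23 ± 0.23 (SE, adjusted p = 0.61)). Its ranges overlapped. *Pdk1*, which blocks pyruvate dehydrogenase and is a HIF target, was 37.2, 32.2 and 25.2 and then 31.6 and 54.6, and none of the 4 genes of pyruvate dehydrogenase and its kinases was called. *Slc2a1*, encoding GLUT1, was 209, 244 and 198 and then 224 and 169, its ranges overlapping. In the parallel series, at 0 and 9 h, *Slc2a1* was 274 and 179.7, *Pdk1* 38.8 and 32 and *Gapdh* 1208 and 994, each lower at 9 h. Among 33 genes of the tricarboxylic acid (TCA) cycle and respiratory chain, 0 were called and the median change was 0.05, near the 0.04 of all genes.

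**Figure D2:**
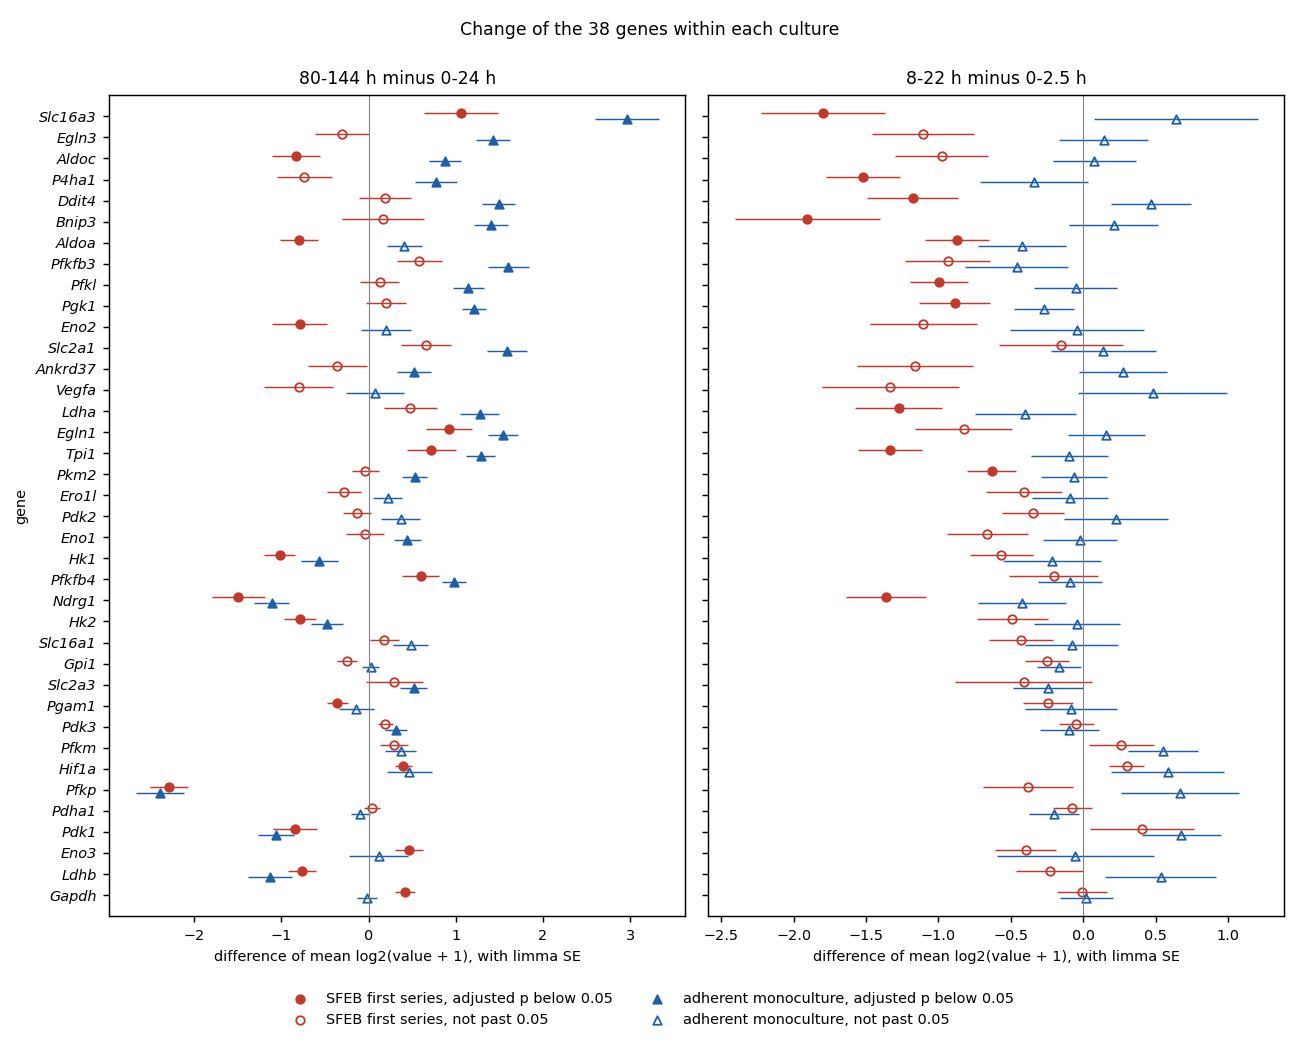
Change of each of the 38 genes as the difference of mean log2(value + 1) with its limma SE, late minus early window on the left and 8 to 22 h minus 0 to 2.5 h on the right, for the first SFEB series (circles) and adherent monoculture (triangles); filled symbols passed an adjusted p of 0.05. On the right 11 filled circles and no filled triangle appear, and on the left most triangles lie to the right of the circles of the same gene.

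From the mid to the late window 5 of the 10 hypoxia response genes rose in each culture. The summed level of the 10 genes in the first SFEB series was 223 FPKM at 0 h, 108 at 22 h, 106 at 42.5 h and 253 at 142 h. In adherent monoculture it was 88.1 at 0 h, 126 at 20.5 h, 250.2 at 140.5 h and 293 at 216 h. The first SFEB series thus began near its level of day 6 and passed through lower values. The adherent series began low and had 0 members called in its first hours. Both cultures were started from R1 ES cells, and the cause of their unlike levels at 0 h was not tested. From the early to the mid window 2 of 38 members rose and 14 fell in SFEB, where 11% of all genes rose and 16.2% fell, and 8 rose and 3 fell in adherent monoculture, where 5.54% rose and 8.45% fell. With the adherent early window ending at 12 h, 3 of these 11 adherent members were called. Without the adherent library of 2.5 or 68.5 h 5 and 6 were called, and without that of 42.5 h 9 in SFEB. From the mid to the late window 5 of the 10 hypoxia response genes rose in SFEB (*Vegfa*, *Egln1*, *Bnip3*, *Ddit4* and *P4ha1*) and 0 fell, where 24.9% of all genes rose and 16.5% fell. In adherent monoculture 5 rose (*Egln1*, *P4ha1*, *Egln3*, *Bnip3* and *Ero1l*) and 0 fell, where 32.9% rose and 16.6% fell. With median-ratio scaling of the libraries the SFEB call of *Bnip3* was lost.

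*Vegfa* passed through a trough in SFEB. From 15.7, 18.3 and 22.9 FPKM at 0 to 2 h it sank to 1.88, 1.36, 1.81 and 1.73 at 34, 42.5, 54.5 and 68 h, and then stood at 5.2, 3.0, 5.1, 12.1 and 14 at 80, 92, 103, 126 and 142 h. Every mid library lay below every early and every late one; mid against early was -2.35 ± 0.42 (SE, adjusted p = 0.00108) and late against mid 1.55 ± 0.42 (SE, adjusted p = 0.00913). In adherent monoculture *Vegfa* was 5.78, 7.4, 8.32 and 10.8 over the first 20.5 h, 3.58, 4.46, 4.32 and 7.46 from 35.5 to 68.5 h and 4.99, 8.55, 4.55, 7.49, 9.68 and 22.4 from 80.5 to 144 h, overlapping throughout and not called in any window contrast.

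*Bnip3* followed a like course with more scatter in floating culture. In the first series it was 10.5, 7.55, 5.71 and 10.7 in the 4 mid libraries and 29.1, 14, 8.4, 32.1 and 47.7 in the 5 late ones (1.31 ± 0.50 (SE, adjusted p = 0.0475) late against mid). In adherent monoculture it was 6.47, 5.39, 5.8 and 8.39 early, 7.75, 12, 9.65 and 15.1 mid and 18.6, 23.5, 16.3, 23, 20.4 and 12.3 late, a change of 1.40 ± 0.19 (SE, adjusted p = 3.12e-05) from early to late. The late SFEB libraries ran from 8.4 at 103 h, close to the level at 8 h, to 47.7 at 142 h, above the level at 0 h. Every late adherent library lay above every early one. *P4ha1* in SFEB was 4.43, 3.3, 4.57 and 5.37 mid and 10.1, 7.42, 7.87, 11.2 and 12 late. These were still below its level at 0 to 2 h. In adherent monoculture *P4ha1* was 8.12, 7.86, 6.32 and 5.89 early and 8.29, 10.6, 8.89, 13.5, 15.9 and 23.4 late (0.77 ± 0.24 (SE, adjusted p = 0.0132) late against early). *Ddit4* in SFEB was 15.3, 13.7, 15.6 and 18.2 mid and 46.6, 22.2, 32.2, 57 and 51.8 late (1.29 ± 0.31 (SE, adjusted p = 0.00495)). In adherent monoculture *Ddit4* rose without a trough, from 19.9, 29.4, 32.4 and 35.5 early to 77.7, 91.8, 78.9, 78.6, 109 and 65.5 late (1.49 ± 0.19 (SE, adjusted p = 1.39e-05)), with no overlap.

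The oxygen sensors differed between each other. *Egln1*, the main HIF prolyl hydroxylase in most tissues, rose in both cultures: in SFEB from 16.9, 18.8, 16.1, 10.9 and 7.86 early to 22.8, 18.9, 18.4, 37.8 and 42.7 late (0.92 ± 0.27 (SE, adjusted p = 0.00839)), and in adherent monoculture from 9.01, 6.35, 8.45 and 8.71 to 18.9, 27.2, 22.1, 29.9, 34.3 and 22.7 (1.54 ± 0.17 (SE, adjusted p = 4.07e-06)). The late libraries lay above all early ones in adherent monoculture, and in SFEB all but that of 103 h, at 18.4, were above the early maximum of 18.8. *Egln3* rose in adherent monoculture from 1.8, 1.43, 2.13 and 1.63 to 7.23, 8.08, 6.04, 7.18, 6.6 and 3.84 (1.43 ± 0.19 (SE, adjusted p = 2.47e-05)). In SFEB, *Egln3* was 12.8, 4.78, 3.29, 5.26 and 6.71 late, within its early range of 4.13 to 12.2 except at 80 and 103 h (-0.30 ± 0.31 (SE, adjusted p = 0.418)). *Hif1a* in SFEB rose from 31.3, 31.4, 26.5, 35.5 and 37.9 to 46.4, 43.9, 38.4, 42.4 and 43.4 (0.40 ± 0.10 (SE, adjusted p = 0.00363)) and was 44, 52, 50.7 and 48.2 in the mid window. In adherent monoculture *Hif1a* varied between 12.9 at 41.5 h and 42.8 at 53.5 h and was not called. *Ndrg1* stayed down in both, at 3.3, 2.04, 1.99, 1.28 and 1.32 late in SFEB (-1.49 ± 0.31 (SE, adjusted p = 0.000782) against early) and -1.11 (adjusted p = 0.000302) in adherent monoculture.

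The library of 80 h in the first SFEB series stood above its neighbors for most members. Against 68 h, 34 of 38 were higher (57.7% of all genes) and 5 at least 2-fold higher (*Bnip3*, *Ddit4*, *Vegfa*, *Egln3* and *Ndrg1*), where 0.537% of all genes were. At 92 h, 32 were lower again than at 80 h (47.8% of all genes) and 4 at least 2-fold lower (*Egln3*, *Ankrd37*, *Ddit4* and *Bnip3*; 0.442% of all genes). All members at least 2-fold changed in either step belonged to the hypoxia response list. The time is covered by 1 library, so this is no replicated difference.

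Setting the 2 cultures beside each other, the late change of the members was more positive in adherent monoculture. From the early to the late window 19 of 38 rose and 6 fell in adherent monoculture, where 32.0% of all genes rose and 24.7% fell, and 7 rose and 10 fell in SFEB, where 29.9% rose and 25.2% fell. The median member changed by 0.46 in adherent monoculture (0.09 over all genes) and by 0.0017 in SFEB (0.05 over all genes). Of the hypoxia response genes 6 rose and 1 fell in adherent monoculture, against 2 and 1 in SFEB. The SFEB change minus the adherent change was negative for 32 of 38 members (84.2%, against 55.6% of 12509 genes), with a median of -0.50 (-0.05 over all genes). It was most negative for *Slc16a3* at -1.90, *Egln3* at -1.73, *Aldoc* at -1.71, *P4ha1* at -1.50 and *Ddit4* at -1.31. This difference was not tested, because the tables were normalized separately.

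The difference was smaller without the first hours. Counted from 8 to 22 h alone, leaving out the libraries of the first hours, the difference was negative for 26 of 38 members (68.4%, against 54.9% of all genes) and its median was -0.13 (-0.03 over all genes). The choice of that start was made after the values had been seen. *Aldoc*, *P4ha1* and *Aldoa* were the members that went down in every late SFEB library and up in every late adherent library relative to the early mean of their own culture. Counted from 8 to 22 h, the SFEB change of *P4ha1* was 0.18 and the adherent one 0.94, so its opposite direction rests on the SFEB libraries of the first hours, while *Aldoc* (-0.25 and 0.84) and *Aldoa* (-0.27 and 0.62) kept theirs. *Aldoc*, the brain aldolase, was 18.6, 19.3, 14.4, 10.7 and 6.36 early and 12.1, 7.84, 4.24, 7.55 and 4.63 late in SFEB (-0.83 ± 0.28 (SE, adjusted p = 0.0188)), and 7.29, 5.78, 6.93 and 6.87 early and 9.33, 14, 9.94, 12.4, 15.1 and 20.8 late in adherent monoculture (0.88 ± 0.18 (SE, adjusted p = 0.000786)).

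Among the glucose transporters, *Slc2a1* rose in adherent monoculture from 201, 143, 196 and 177 FPKM early to 342, 587, 547 and 877 mid and 747, 559, 582, 587, 442 and 371 late (1.58 ± 0.23 (SE, adjusted p = 3.93e-05) late against early). All 10 mid and late libraries lay above the 4 early ones. In SFEB it was 209, 244, 198, 224 and 169 early, 144, 172, 241 and 357 mid and 468, 386, 474, 285 and 153 late (0.66 ± 0.29 (SE, adjusted p = 0.0629)). It was highest from 68 to 103 h and below all early libraries at 142 h. *Slc2a3*, the neuronal-type transporter GLUT3, was 249, 267, 190.3, 187 and 164 early, 120.2, 45.5, 119 and 180.3 mid and 313, 326, 332, 257 and 124 late in SFEB, a fall into the mid window (-0.99 ± 0.34 (SE, adjusted p = 0.0439)) and a rise out of it (1.28 ± 0.34 (SE, adjusted p = 0.0086)). In adherent monoculture *Slc2a3* was 154, 192, 117 and 152 mid and 206, 247, 170.0, 209, 241 and 303 late (0.57 ± 0.16 (SE, adjusted p = 0.00799)). Of the summed FPKM of both transporters, *Slc2a1* took 45.7% at 0 h, 79.1% at 42.5 h and 55.3% at 142 h in SFEB, and 52.3%, 85.2% and 55.1% at 0, 68.5 and 144 h in adherent monoculture.

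The hexokinases and the platelet-type phosphofructokinase subunit fell in both cultures. *Hk2*, the hexokinase tied to high glycolytic flux, was 55, 66.5, 66, 49.4 and 39.3 early and 45.1, 32.3, 35.8, 28.1 and 19.6 late in SFEB (-0.78 ± 0.18 (SE, adjusted p = 0.00224)), and 52.8, 38.7, 48.6 and 39.5 and 42.5, 35, 35.2, 35.4, 29.2 and 18.4 in adherent monoculture (-0.48 ± 0.18 (SE, adjusted p = 0.0359)). *Hk1*, the widely expressed hexokinase, went from 29.5, 29.6, 19.4, 17 and 17.1 to 10, 9.93, 8.19, 12.1 and 11.5 in SFEB (-1.02 ± 0.18 (SE, adjusted p = 0.000239)) and from 21.2, 19.8, 21.1 and 14.5 to 8.87, 11.8, 10.1, 13.7, 16.6 and 15.4 in adherent monoculture (-0.57 ± 0.21 (SE, adjusted p = 0.0338)). *Hk1* levels did not overlap between the windows in SFEB and overlapped in adherent monoculture. *Pfkp*, that phosphofructokinase subunit, had the largest fall of the membership in both: from 53.1, 53.8, 46.5, 37.2 and 40.7 to 12.1, 8.97, 7.04, 7.19 and 8.44 in SFEB (-2.29 ± 0.22 (SE, adjusted p = 1.33e-06)), and from 32.5, 37.9, 50.4 and 63 to 7.36, 9.03, 6.56, 6.96, 6.75 and 9.77 in adherent monoculture (-2.39 ± 0.28 (SE, adjusted p = 6.71e-06)). It made up 33.3% of the summed FPKM of the 3 subunits at 0 h and 6.19% at 126 h in SFEB, and 49.8% at 20.5 h and 4.73% at 140.5 h in adherent monoculture. *Pfkfb3*, whose product makes fructose-2,6-bisphosphate and so activates phosphofructokinase, rose in adherent monoculture from 2.68, 2.51, 1.66 and 1.57 to 5.9, 7.38, 6.42, 8.01, 10.3 and 13.8 (1.60 ± 0.23 (SE, adjusted p = 4.62e-05)). In SFEB *Pfkfb3* was 7.23, 8.01, 4.18, 3.21 and 2.43 early, 2.75, 3.39, 3.27 and 3.37 mid and 5.78, 4.91, 7.06, 9.89 and 10.7 late (0.58 ± 0.26 (SE, adjusted p = 0.0687) late against early, 1.00 ± 0.27 (SE, adjusted p = 0.00981) late against mid).

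In the lower pathway *Aldoa* fell in SFEB and *Pgk1* rose in adherent monoculture, and neither was called in the other culture. *Aldoa* in SFEB went from 979.6, 1056, 1061, 691 and 457 early to 657, 470.0, 403, 489 and 357 late (-0.80 ± 0.21 (SE, adjusted p = 0.00538)), and in adherent monoculture it was 583, 520.2, 475 and 353 and 620.3, 786, 589.6, 639.7, 673 and 513 (0.41 ± 0.20 (SE, adjusted p = 0.0962)). The 35.5 h adherent library held the top *Aldoa* value of that series, 1153 FPKM. *Pgk1* in adherent monoculture went from 227, 200.3, 172 and 181 to 342, 499, 418, 454, 496 and 519.8 (1.21 ± 0.14 (SE, adjusted p = 5.63e-06)), with no overlap. In SFEB it was 348, 277, 301, 491 and 486 late against 381, 382, 485, 267 and 185 early (0.20 ± 0.23 (SE, adjusted p = 0.483)). Of the remaining 7 genes from triose phosphates to pyruvate, *Tpi1* rose in both cultures (by 0.72 in SFEB and 1.28 in adherent monoculture). *Gapdh* and *Eno3* rose, and *Eno2* and *Pgam1* fell, in SFEB alone by their own tests, and *Pkm2* and *Eno1* rose in adherent monoculture alone; the differences between the cultures were not tested. In the parallel SFEB series *Gapdh* was lower late, at 984, 954 and 973 against 1208 and 994 early. Of the 17 members called from early to late in the first series, 15 had the same sign in the parallel series, and *Gapdh* and *Ldhb* had the opposite one. The same share over all called genes was not computed, so this count does not set the members apart. The SFEB calls of *Tpi1* and *Eno3* and the adherent call of *Eno1* were lost with median-ratio scaling.

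The balance of the lactate dehydrogenases moved first toward *Ldhb* and later toward *Ldha* in the first SFEB series and in adherent monoculture. *Ldhb* in SFEB was 200.3, 196, 245, 161 and 203 early, 255, 267, 280.1 and 229 mid and 174, 132, 96.5, 87.7 and 111 late (-0.77 ± 0.16 (SE, adjusted p = 0.000932)), and in adherent monoculture 155, 161, 198 and 263, 331, 305, 222 and 143 and 94.2, 67.3, 66.2, 75.2, 86.3 and 149 (-1.13 ± 0.26 (SE, adjusted p = 0.00161)). *Ldha* rose in adherent monoculture from 363, 297, 257 and 239.8 early to 614, 903, 709, 868, 865 and 369 late (1.27 ± 0.23 (SE, adjusted p = 0.00024)). In SFEB it was 267, 561, 414 and 568 mid and 847, 647, 738, 781 and 571 late, the latter within its early range but for 80 and 126 h (0.48 ± 0.30 (SE, adjusted p = 0.19)). The share of *Ldha* in the summed FPKM of both genes was 76.9% at 0 h, 51.2% at 34 h, 89.9% at 126 h and 83.7% at 142 h in the first SFEB series. In adherent monoculture it was 70.1%, 47.7%, 93.1% and 71.3% at 0, 20.5, 92.5 and 144 h. In the parallel SFEB series it was 83.5% at 0 h, 64.7% at 38 h, 81.2% at 84 h, 69.2% at 144 h and 55.7% at 216 h. *Ldhb* there did not fall, at 177 and 139 early and 199, 173 and 191 late.

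*Slc16a3* had the largest rise of all members in the first SFEB series and in adherent monoculture. It went from 8.26, 4.88, 7.14 and 15.3 FPKM early to 71.4, 92.8, 61.3 and 91.8 mid and 95.1, 92, 77.4, 98.5, 83.8 and 22.2 late in adherent monoculture (2.96 ± 0.37 (SE, adjusted p = 1.17e-05)), and from 60.6, 59.3, 39.3, 9.7 and 20.9 to 49.4, 119.7, 87.2 and 101 and 122, 70.5, 62.5, 57.7 and 41.1 in SFEB (1.06 ± 0.43 (SE, adjusted p = 0.0448)). The SFEB windows overlapped and the call was lost with median-ratio scaling. In adherent monoculture every mid and late library lay above the early maximum of 15.3. *Pdk1* was high from 22 to 54.5 h in SFEB, at 54.6, 57.8, 42 and 49.1, and from 20.5 to 53.5 h in adherent monoculture, at 48.1, 49.9, 49 and 49.2. It then fell to 36.7, 22.3, 11.5, 15.9 and 16.3 late in SFEB (-0.85 ± 0.25 (SE, adjusted p = 0.00939) against early) and to 19.8, 18, 14.8, 17.3, 12.8 and 12.1 in adherent monoculture (-1.06 ± 0.20 (SE, adjusted p = 0.000459)). *Pdk1* thus fell while *Egln1*, another HIF target, rose in both cultures.

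**Figure D3:**
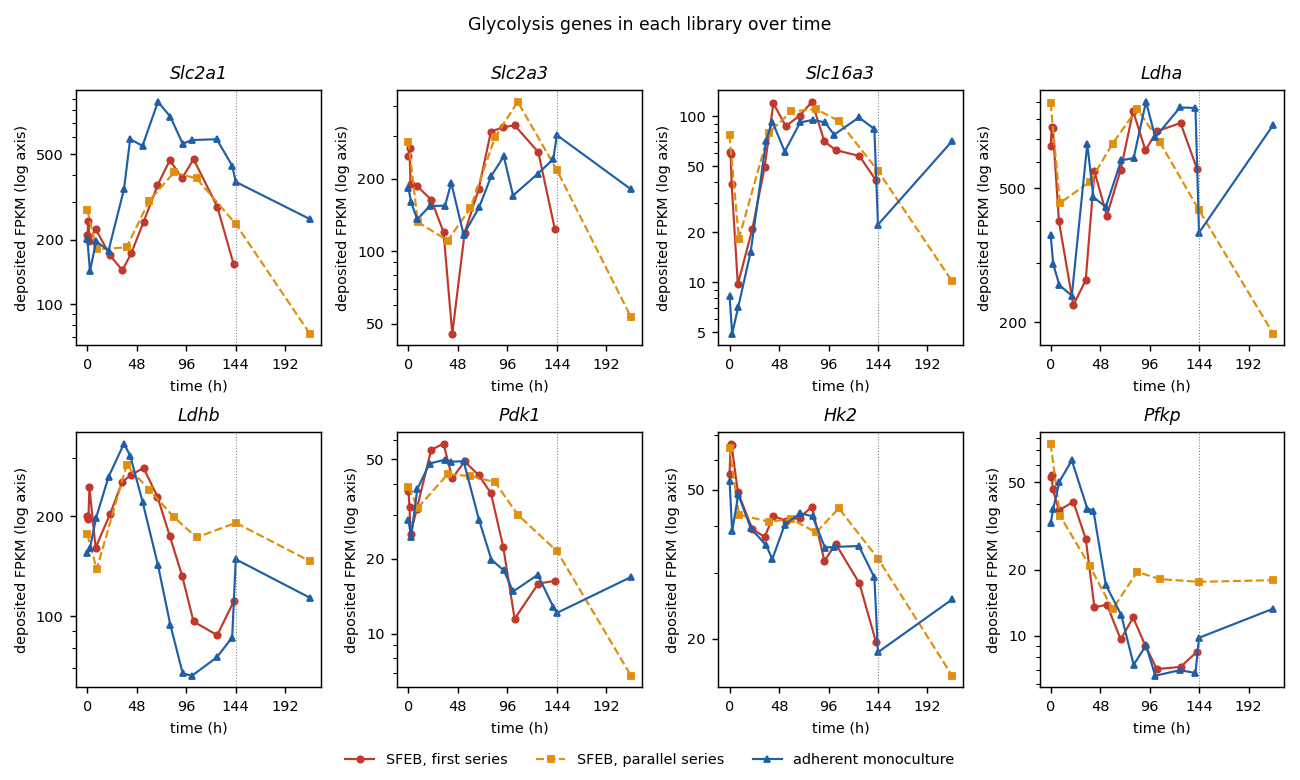
Deposited FPKM (log axis) of 8 glycolysis genes in each population library against time in hours, with the first SFEB series as circles, the parallel SFEB series as squares, adherent monoculture as triangles and replating at 144 h as a dotted line. *Slc16a3* runs from 4.88 to 98.5 in adherent monoculture, *Pfkp* and *Pdk1* decline in both cultures, and at 216 h the SFEB and adherent values of *Slc2a1*, *Slc16a3* and *Ldha* lie far apart.

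After replating the 2 cultures parted. In the parallel SFEB series 30 of 38 members were lower at 216 h than at 144 h (48.5% of all genes), and 15 were at least 2-fold lower and 0 at least 2-fold higher, where 3.49% and 7.70% of all genes were. *Slc2a1* was 236 FPKM at 144 h and 72.7 at 216 h, *Slc2a3* 217 and 53.3, *Slc16a3* 46.9 and 10.1, *Ldha* 430.1 and 185, and *Pdk1* 21.5 and 6.8. The list covers uptake, lactate and pyruvate control, and the median member change was -0.73 (0.02 over all genes). In adherent monoculture 5 members were at least 2-fold higher and 1 lower at 216 h than at 144 h (3.66% and 6.02% of all genes). *Slc2a1* there was 371 and 249, *Slc16a3* 22.2 and 71, *Ldha* 369 and 771, and *Bnip3* 12.3 and 33.2.

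The adherent library of 144 h differed from that of 140.5 h. Between them 4 members were at least 2-fold higher and 4 at least 2-fold lower (4.83% and 0.822% of all genes), among them *Slc16a3* at 83.8 and 22.2 and *Eno3* at 12.3 and 37.5 FPKM. The summed mesoderm and endoderm markers (7 of 10 in the table) were 11.6 and 70.1 in these libraries, and their part in the difference was not tested. Against 140.5 h instead, 1 member was at least 2-fold higher at 216 h and 0 lower (3.35% and 1.13% of all genes). Each time is 1 library, so none of these steps has a replicate check.

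Other genes of the same pathways were taken from lists that hold no member. Of 25 further hypoxia genes tested, 5 fell and 0 rose in the first hours of SFEB, where 3.85% of all genes fell. From early to late 7 rose and 6 fell in SFEB and 8 rose and 6 fell in adherent monoculture, shares near those of all genes (29.9% and 25.2% in SFEB, 32.0% and 24.7% in adherent monoculture). *Hmox1*, heme oxygenase, fell in both SFEB and adherent monoculture (-1.77 ± 0.30 (SE, adjusted p = 0.000165) and -2.03 ± 0.29 (SE, adjusted p = 3.41e-05)). *Epas1*, the HIF2 alpha subunit, fell in SFEB after a peak of 31.6 at 22 h (-2.62 ± 0.37 (SE, adjusted p = 3.61e-05)). *Cited2*, a competitor of HIF1 for its coactivator, rose in adherent monoculture (1.83 ± 0.17 (SE, adjusted p = 1.37e-06)).

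Among further glucose metabolism genes 5 of 18 rose and 7 fell in SFEB and 7 of 19 rose and 8 fell in adherent monoculture, with medians of -0.17 and -0.19 against 0.05 and 0.09 over all genes. *Slc2a4*, the insulin-responsive transporter, rose in both from a low level (1.56 ± 0.14 (SE, adjusted p = 9.76e-07) and 1.43 ± 0.19 (SE, adjusted p = 1.85e-05); 0.593 and 3.97 FPKM at 0 and 142 h in SFEB). *Pdk4* (-1.83 ± 0.19 (SE, adjusted p = 2.91e-06)) and *Pgam2* (-1.38 ± 0.23 (SE, adjusted p = 0.000132)) fell in SFEB, and *Ldhc* (-1.16 ± 0.24 (SE, adjusted p = 0.000829)) and *Pck2* (-1.15 ± 0.26 (SE, adjusted p = 0.00183)) in adherent monoculture. Of the 33 genes of the TCA cycle and respiratory chain, 3 rose and 9 fell in SFEB, where 29.9% of all genes rose and 25.2% fell. In adherent monoculture 1 rose and 14 fell, where 32.0% rose and 24.7% fell. *Mpc1*, a subunit of the mitochondrial pyruvate carrier, fell in both (-1.23 ± 0.19 (SE, adjusted p = 8.88e-05) and -1.36 ± 0.14 (SE, adjusted p = 2.53e-06)), as did the complex III subunit *Uqcrc1* (-0.85 ± 0.12 (SE, adjusted p = 3.75e-05) and -0.75 ± 0.15 (SE, adjusted p = 0.000828)). *Cox5a* of complex IV fell in SFEB (-0.74 ± 0.14 (SE, adjusted p = 0.000521)) and *Ndufv1* of complex I in adherent monoculture (-0.63 ± 0.11 (SE, adjusted p = 0.000184)).

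Single cells of the floating culture were given as quantile-normalized log10(RPKM + 1) (RPKM, the read-based counterpart of FPKM), with 8 cells per time point that count as 1 sample. *Bnip3* had a mean of 1.13 at 0 h (range 0.14 to 1.95) and 0.02 at 9 h (range 0.00 to 0.09), and then 0.49, 0.38, 0.54, 0.94, 0.90 and 0.47 at 38, 60, 84, 106, 144 and 216 h. *P4ha1* averaged 0.60 at 0 h and 0.01 at 9 h, and *Ankrd37* 0.80 and 0.02. At 0 h, 3, 3 and 4 of 8 cells exceeded 10 RPKM for *Bnip3*, *P4ha1* and *Ankrd37*, and at 9 h 0 of 8 did for each. Over the 9 hypoxia response genes in the table, 23.6% of the values at 0 h exceeded 10 RPKM and 6.94% at 9 h, at a constant 22.4 to 22.5% over all genes. Fewer genes were seen above 0 at 9 h (median of 6927 per cell) than at 0 h (8972), and the part of detection in the drop was not tested. Fibroblast markers in the cells (7 genes) had a median summed level of 14.6 at 0 h and 4.20 at 9 h.

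Of the 26 glycolysis genes in the single-cell table, 9 exceeded 10 RPKM in at least 7 of 8 cells at every time (*Aldoa*, *Tpi1*, *Gapdh*, *Pgk1*, *Pgam1*, *Eno1*, *Pkm2*, *Ldha* and *Ldhb*). Another 4 did so in at most 2 of 8 cells at any time (*Hk1*, *Hk2*, *Pfkfb3* and *Pdk2*). *Ldha* averaged 3.14, 2.59, 2.54, 3.13, 3.22, 2.94, 2.29 and 1.68 over the 8 times, ranging from 2.92 to 3.51 at 0 h and from 2.27 to 2.95 at 9 h, and at 216 h it was lower in every cell than in any cell of 0 h. *Slc2a1* averaged 2.21, 1.78, 2.14, 2.21, 2.56, 2.19, 2.17 and 1.13. *Slc16a3* was unequal between cells, with means of 0.87, 0.38, 1.79, 2.05, 1.07, 1.32, 0.96 and 0.09 and a range from 0.13 to 2.64 at 38 h. The summed RPKM of the 26 glycolysis genes had a median over cells of 15122 at 0 h, 9409 at 9 h, 16336 at 60 h and 4844 at 216 h. A linear trend over the 8 time point means (per 100 h) called 4 of 35 members, all falling, where 1.67% of all genes rose and 1.07% fell: *Ldha* (-0.50 ± 0.13 (SE, adjusted p = 0.0351)), *Pgam1* (-0.48 ± 0.11 (SE, adjusted p = 0.0194)), *Gpi1* (-0.45 ± 0.12 (SE, adjusted p = 0.0415)) and *Aldoa* (-0.42 ± 0.09 (SE, adjusted p = 0.0096)). The 4 calls were lost with the median of cells, with the log10 of mean linear values and up to 144 h (0 members called in each). For *Ldha*, *Pgam1*, *Gpi1* and *Aldoa* the slopes were -0.50, -0.42, -0.48 and -0.49 with the median of cells. With the log10 of mean linear values they were -0.48, -0.33, -0.29 and -0.31. Up to 144 h the slopes were -0.43 for *Gpi1*, -0.38 for *Aldoa*, -0.22 for *Pgam1* and -0.19 for *Ldha*, and limma called 0 genes (1693 at an unadjusted p under 0.05).

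**Figure D4:**
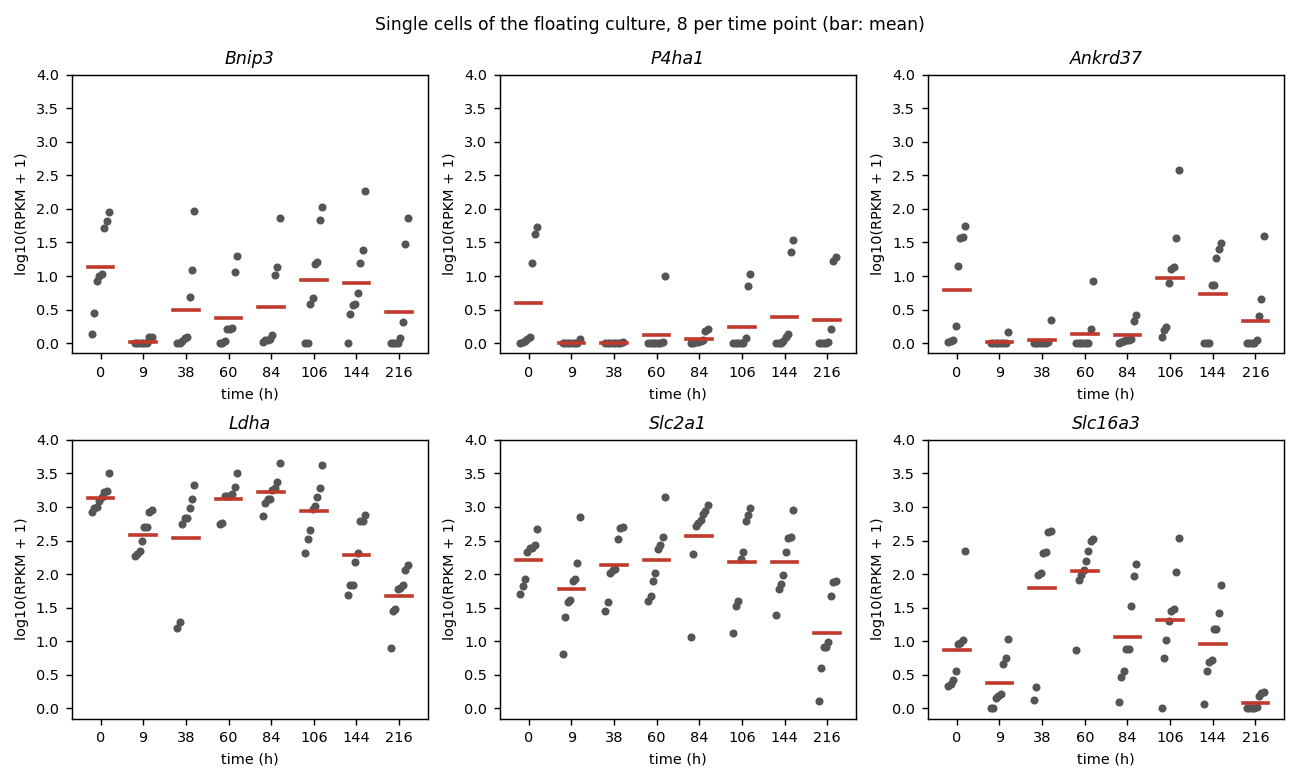
Each point is 1 single cell of the floating culture, with log10(RPKM + 1) of 6 genes on the vertical axis and time in hours (0 to 216 h) on the horizontal one; bars are means of 8 cells. *Bnip3*, *P4ha1* and *Ankrd37* lie at or near 0 in all cells at 9 h, and *Ldha* and *Slc2a1* are lowest at 216 h.

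In the E14 cells the targeted gene was checked first. *Fyn* was 3.21, 2.74 and 4.00 FPKM in the WT libraries of day 0 and 9.44, 4.54 and 6.76 in those of day 4, and 0.598, 0.598 and 1.10 and 1.19, 1.13 and 1.58 in the KO libraries of days 0 and 4, lower in every KO library than in every WT library. WT day 4 replicate 1 stood apart in its markers (8 pluripotency markers summed to 836 FPKM, against 2188 and 2149 in replicates 2 and 3). From day 0 to day 4, 6 of 38 members rose and 3 fell in WT cells, where 15.5% of all 12257 genes rose and 10.3% fell. In KO cells 6 rose and 1 fell, where 11.8% rose and 7.56% fell. Leaving out 1 library at a time gave 5 to 13 members and 1831 to 3528 genes in WT cells, and 3 to 10 members and 1041 to 3063 genes in KO cells. Of the 10 hypoxia response genes 0 were called by limma in either genotype without a replicate block, and *Bnip3* and *Egln3* were called in WT cells with it, as given further on. By limma 0 and 0 members were called between KO and WT at day 0 and day 4, where 0.171% and 0.0734% of all genes were. At an unadjusted p under 0.05, there were 3 of 38 members at day 0 (*Bnip3*, *Pdk1* and *Egln3*), against 14.6% of all genes, and 4 at day 4, against 12.1%. The difference of the 2 time courses called 0 genes (537, or 4.38%, at an unadjusted p under 0.05).

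*Slc2a1* had the largest rise of the members. It was 62.9, 36 and 78 FPKM in WT cells at day 0 and 220.1, 363 and 634 at day 4 (2.70 ± 0.48 (SE, adjusted p = 0.0028)), and 142, 48.6 and 163 and 591, 457 and 847 in KO cells (2.54 ± 0.48 (SE, adjusted p = 0.00499)). All day 4 values lay above all day 0 values in both genotypes, as in adherent monoculture, and *Slc2a1* took 16, 7.54 and 13.4% of the summed FPKM of both transporters in WT cells at day 0 and 43.6, 47.6 and 58.4% at day 4. *Slc16a3* was 4.83, 3.67 and 19.6 and 61.7, 19.3 and 83.8 in WT cells (2.53 ± 0.85 (SE, adjusted p = 0.0479)), and 34.9, 4.73 and 48 and 179, 45 and 79.2 in KO cells (2.02 ± 0.85 (SE, adjusted p = 0.118)). Its libraries scattered widely, with WT overlapping at 19.3 and 19.6 FPKM.

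*Ldhb* and *Pdk1*, which fell from the early to the late window in the first SFEB series and in adherent monoculture, rose in E14 cells from day 0 to day 4. *Ldhb* was 106, 85.6 and 101 and 226, 648 and 602 in WT cells (2.19 ± 0.48 (SE, adjusted p = 0.00777)), and 196, 212 and 60.2 and 421, 798 and 622 in KO cells (2.12 ± 0.48 (SE, adjusted p = 0.0116)). *Pdk1* was 12.3, 2.02 and 4.17 and 13.9, 26 and 40.1 in WT cells (2.10 ± 0.63 (SE, adjusted p = 0.0294)), and 19.9, 5.46 and 35.7 and 67.1, 69.7 and 70.7 in KO cells (2.04 ± 0.63 (SE, adjusted p = 0.0411)). The hexokinases fell here too: *Hk2* went from 52.8, 66.2 and 103 to 29, 26.4 and 33.7 in WT cells (-1.24 ± 0.27 (SE, adjusted p = 0.0079)) and from 92.4, 71.7 and 65.4 to 40.7, 20.5 and 23.2 in KO cells (-1.46 ± 0.27 (SE, adjusted p = 0.00477)), without overlap in either. *Hk1* was 20.8, 27.5 and 32.3 and 5.64, 9.2 and 9.71 in WT cells (-1.61 ± 0.42 (SE, adjusted p = 0.0163)), and 40.2, 39 and 12.8 and 6.9, 16.4 and 14.8 in KO cells (-1.13 ± 0.42 (SE, adjusted p = 0.0791)). *Pfkp* was 29.4, 39 and 67.6 and 16.6, 19.5 and 23.2 in WT cells (-1.09 ± 0.29 (SE, adjusted p = 0.0173)), and the remaining calls were of *Pfkm* and *Slc16a1* (up in both genotypes) and *Eno2* (up in KO cells).

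*Bnip3* scattered widely between libraries of a group. It was 1.12, 2.44 and 13.4 FPKM in WT cells at day 0 and 15.7, 13.5 and 45.6 at day 4 (2.25 ± 0.83 (SE, adjusted p = 0.0673)), and 37.2, 6.82 and 31.1 and 107, 20.3 and 71.8 in KO cells (1.38 ± 0.83 (SE, adjusted p = 0.266)). WT replicate 3 held the highest value of all 10 hypoxia response genes at day 0 and of 8 at day 4. Among KO libraries, replicate 2 held the lowest value of 7 of these genes at day 0 and of 9 at day 4. KO replicate 1 held the highest of 8 at day 4. With the replicate number as a block, 13 members rose and 3 fell in WT cells (17.5% and 11.6% of all genes), and *Bnip3* (2.25 ± 0.58 (SE, adjusted p = 0.0182)) and *Egln3* (1.98 ± 0.54 (SE, adjusted p = 0.0217)) were among those called.

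**Figure D5:**
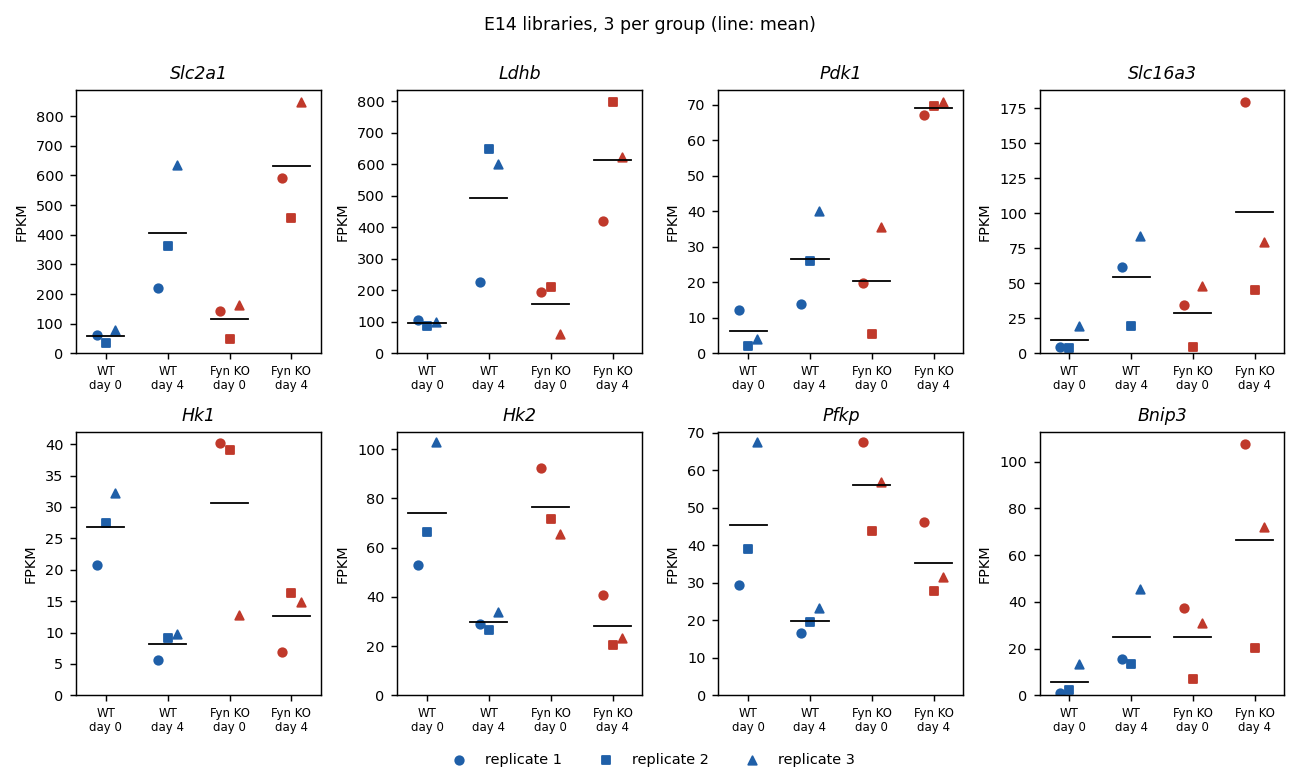
FPKM (linear axes from 0) of 8 members in the 12 E14 libraries by genotype (WT or *Fyn* KO) and day (0 or 4); symbols mark replicates 1 to 3 and lines are group means. *Slc2a1* is higher at day 4 in all libraries of both genotypes, *Hk2* is lower, and *Bnip3* spreads from 1.12 to 107 FPKM.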

How the data were processed

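RNA-seq was measured in R1 and E14 mouse ES cells (113 samples). The submitters' processing notes name TopHat2 2.0.8b, Cufflinks 2.1.1 and the mm9 and mm10 builds. SFEB population values were deposited by the authors as batch-adjusted FPKM and were treated as a score, since 1256 values lay below 0 (none of a member) and were set to 0. Adherent and E14 values were deposited as FPKM, and single-cell values by the authors as quantile-normalized log10(RPKM + 1). The differentiation protocol of the E14 cells is not given in the sources used here.

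For the populations and E14 cells, genes with a value of at least 1 in at least 3 samples entered limma 3.58.1 (R 4.3.3, trended empirical Bayes) on log2(value + 1). Each table was fitted alone, with Benjamini-Hochberg adjustment over all genes tested, and the fits were tested on simulated data. Summaries used Python 3.11.15, pandas 2.3.3 and numpy 2.4.6, and figures matplotlib 3.10.9. Groups came from the labels. The single-cell trend was fitted with limma to time point means of log10(RPKM + 1), over all 11449 genes and without the filter. Members, gene lists and tests were chosen with earlier results of these data known, and the contrast of 8 to 22 h with the first hours after the values were seen. Per-library values are given for 15 fixed members, the 5 largest late changes in each culture and differences between cultures, the 3 largest called E14 changes per contrast and the 3 largest late changes of each further list (1 of these genes is not reported here); the members called in the first hours were named after their values were seen. *Pkm2* is named *Pkm* in the E14 table. E14 replicate numbers paired WT days 0 and 4 (deviations correlated at 0.199, 0.220 and 0.224) and WT and KO at day 4 (0.136, 0.258 and 0.240). They did not pair the other groups throughout. Replicates 1, 2 and 3 gave 0.063, 0.339 and -0.115 for WT and KO at day 0, and 0.024, 0.090 and 0.001 for KO days 0 and 4. Alternatives were other pseudocounts, filters, scaling, windows, single libraries left out and a replicate block. Counts were not used here, so no depth limit could be computed.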

Additional observations from a re-analysis of the deposited data

Results flagged for a closer look

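Single cells that stood apart from the other 7 of their time point, by the gap to the nearest cell relative to the range, were found 33 times. The search covered 221 groups of cells (every member in the table, at each time with at least 6 of 8 cells above 0). The rule's rate of about 1 in 20 holds for normally distributed values. Many of these values lie at or near 0, so the count cannot be set against that rate, and no share over all genes was computed. Values are log10(RPKM + 1). Among glucose transporters and hexokinases, *Slc2a1* had a low cell at 84 h (1.06), *Slc2a3* a high cell at 216 h (2.00) and *Hk2* a high cell at 38 h (1.09), at 106 h (1.33) and at 216 h (0.0353), the last of which is near 0. Of the phosphofructokinase subunits, *Pfkl* had a high cell at 144 h (2.36), *Pfkm* at 38 h (2.42) and *Pfkp* at 60, 144 and 216 h (1.69, 1.95 and 1.69). The high *Slc2a3* and *Pfkp* values at 216 h came from the same cell (cell 16, the one left out in the alternative to the single-cell trend). Other cells were also flagged for more than 1 member. These were cell 2 at 60 h (*Pfkp*, *Pkm2* and *Pdha1*), cell 2 at 0 h (*Slc16a3* and *Pdk2*) and cell 7 at 0 h (*Eno1* and *Ldhb*). They also included cell 7 at 38 h (*Pfkm* and *Aldoc*), and cell 8 at 38 h and cell 5 at 106 h (*Hk2* and *Ero1l* in each). From aldolase to pyruvate kinase, *Aldoc* had a high cell at 38 and 84 h (1.48 and 2.38), *Eno3* at 60 h (1.84) and *Pkm2* at 60 h (4.02). Low cells were found for *Gapdh* at 106 h (3.12), *Pgk1* at 84 h (1.46) and *Eno1* at 0 and 106 h (2.58 and 2.24). In lactate handling, *Ldhb* had a low cell at 0 h (0.442), *Slc16a1* a high one at 60 and 216 h (1.55 and 1.50), and *Slc16a3* a high one at 0 h (2.35) and a low one at 60 h (0.868). *Pdha1* had a low cell at 60 h (0.616), *Pdk2* a high one at 0, 84 and 216 h (2.27, 1.51 and 1.97) and *Pdk3* at 106 h (2.14). Of the hypoxia response genes, *Egln1* had a high cell at 60 h (1.45), *Egln3* at 38 h (1.49), *Ero1l* at 38 and 106 h (1.05 and 1.79) and *Ndrg1* at 0 h (1.02).

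The late changes of *Aldoc*, *P4ha1* and *Aldoa* went in opposite directions in the 2 cultures in every late library relative to the early mean of its own culture. The SFEB change minus the adherent change was -1.71 for *Aldoc*, -1.50 for *P4ha1* and -1.21 for *Aldoa* on the log2 scale. Counted from 8 to 22 h instead of the whole early window, the SFEB change of *P4ha1* was 0.18, no longer opposite to the adherent one (0.94), and the difference was -0.76. The difference was not tested, since the tables were normalized separately.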

How the results depend on the processing

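Of 2286 alternatives to the 133 member calls, 2001 kept direction and call, 285 lost the call and 0 reversed. Some of them leave out a library that is not in the contrast. Calls lost on leaving out some single library were 11 of 11 in the first hours of SFEB, 5 of 9 in WT and 4 of 7 in KO cells. In SFEB and adherent monoculture they were 7 of 16 and 6 of 11 from early to mid, 7 of 17 and 5 of 25 from early to late, and 5 of 16 and 3 of 17 from mid to late. A pseudocount of 0.1 gave 532 genes for the first hours of SFEB (817 before) and 8 members (11 before), and 1 for adherent monoculture (2 before). With the adherent early window ending at 12 h, 823 genes (1786 before) and 3 members (11 before) were called from early to mid. Without the low-value filter 35 genes differed between KO and WT at day 0 (32 with median-ratio scaling, 21 in the reported fit), 24 at day 4 (9 reported) and 1 in the difference of time courses (0 reported). The single-cell trend called 18 genes on the log10 of mean linear values, 1 on the median of cells and 0 up to 144 h (313 reported), and 0 members in each (4 reported). Counted from 8 to 22 h, the median difference of the late changes was -0.13 (-0.50 reported). Scaling moved the median of all genes by over 0.1 only in the adherent late against mid contrast (0.17 to 0.06).

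With the replicate block 16 members were called in WT cells from day 0 to day 4 (9 without it), where 17.5% of all genes rose and 11.6% fell. In KO cells, where the numbers do not pair the samples, it called 12 (7 without it). The share of all genes called with the block in KO cells is not given here, so that count has no background. The block called 38 genes between KO and WT at day 0, 10 at day 4 (9 without it), where the numbers pair the samples, and 2 in the difference of time courses, and it lost no member call.

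Leaving out 1 library at a time gave 42 to 636 genes and 0 to 9 members for the first hours of SFEB (464 and 284 genes without 0 and 1 h), and 0 to 19 genes and 0 members in adherent monoculture. From early to mid it gave 2307 to 4192 genes and 9 to 18 members in SFEB, and 962 to 2390 and 5 to 13 in adherent monoculture (1183 and 1105 genes without 0 and 8.5 h). From early to late it gave 6324 to 7280 and 13 to 18, and 6451 to 7559 and 20 to 26; from mid to late 3928 to 5922 and 12 to 19, and 4704 to 6956 and 15 to 19. In E14 cells it gave 1831 to 3528 genes and 5 to 13 members in WT and 1041 to 3063 and 3 to 10 in KO cells, 4 to 128 genes between KO and WT at day 0, 5 to 14 at day 4 and 0 to 4 in the difference, with 0 members in these 3. Without cell 16 of 216 h the trend called 488 genes and 7 members (4 with it). Besides that cell, the libraries that moved a count of members by over 1.5 times were those of 0, 1, 2 and 22 h in the first hours of SFEB (5, 4, 7 and 0, against 11), that of 42.5 h in SFEB from early to mid (9 without it, 16 with it), those of 2.5 and 68.5 h in adherent monoculture (5 and 6, against 11), WT day 0 replicate 2 (5, against 9), and KO day 0 replicate 2 and KO day 4 replicate 3 (4 and 3, against 7). The cause of each move was not tested.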
